A study of Mus musculus with 2 samples.

Results

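The genes described here form the survival axis of B lymphocytes built from BAFF, APRIL and CD40. They are the receptor genes Tnfrsf13c, Tnfrsf13b and Cd40, the ligand genes Tnfsf13b, Tnfsf13 and Cd40lg, and the signalling genes Traf2, Traf3 and Map3k14. They were chosen by name and not by a measured value, but with earlier results of these data known. They are 9 of the 21938 protein-coding genes of the mouse annotation. For each gene, every deposited peak that overlapped the gene body or the 20 kb on either side was taken, which gave 74 of 79246 peaks in animal 1 and 68 of 77231 peaks in animal 2.

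The material was whole spleen from 2 male mice of the hybrid strain B6CASTF1/J, the F1 of a C57BL/6J and a CAST/EiJ parent, aged 2 months, with no treatment or altered gene named in the labels. Accessible chromatin was mapped by DNase-seq, in which DNase I cuts open DNA and the cut positions are sequenced. Each library was made from a separate animal, named animal 1 and animal 2 by the replicate numbers in the labels, and both animals share 1 strain-level donor entry. Both libraries form 1 group, so there is no contrast of conditions and no test, and each mean ± SD below is over these 2 animals alone.

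BAFF and APRIL are ligands of the tumour necrosis factor (TNF) superfamily that keep B cells and plasma cells alive, and CD40 ligand is the signal by which activated helper T cells license B cells. In resting B cells TRAF2 and TRAF3 hold the kinase NIK, the product of Map3k14, at a low level by targeting it for degradation. When the BAFF receptor or CD40 is engaged TRAF3 is lost, NIK accumulates and the noncanonical NF-kB pathway is switched on. In the spleen B cells carry the receptors, BAFF is made mainly by stromal and myeloid cells, and CD40 ligand appears on T cells after activation.

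The sequences that carry the results are given first. All are reference letters of the C57BL/6J genome (mm10, the sequence of GRCm38.p6), so sites where the CAST/EiJ allele differs are not shown. They are written 5′ to 3′ on the strand of the gene named, and cover the bases that lie in a peak of both animals and outside annotated coding and untranslated exons. Capitals mark bases inside a deposited footprint of both animals, a footprint being a short stretch within a peak that DNase I cut less than its surroundings. The first 4 are the promoter and the strongest distal peaks of Tnfrsf13c, shown because the peaks on either side of the gene carry the same footprinted letters.
Tnfrsf13c promoter, chr15:82224370-82224520, minus strand: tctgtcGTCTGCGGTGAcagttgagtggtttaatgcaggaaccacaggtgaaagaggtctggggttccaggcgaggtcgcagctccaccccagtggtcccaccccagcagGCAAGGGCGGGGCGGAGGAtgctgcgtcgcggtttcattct
Tnfrsf13c +5.3 kb peak, chr15:82218981-82219120, minus strand: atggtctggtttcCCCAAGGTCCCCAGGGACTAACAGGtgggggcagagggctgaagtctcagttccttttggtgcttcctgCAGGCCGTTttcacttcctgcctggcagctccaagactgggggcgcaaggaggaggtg
Tnfrsf13c −5.3 kb peak, chr15:82229561-82229760, minus strand: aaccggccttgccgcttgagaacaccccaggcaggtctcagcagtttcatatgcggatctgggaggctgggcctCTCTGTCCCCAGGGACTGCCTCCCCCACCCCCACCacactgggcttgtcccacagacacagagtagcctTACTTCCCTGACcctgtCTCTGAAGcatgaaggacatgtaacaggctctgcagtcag
Tnfrsf13c −12.4 kb peak, chr15:82236701-82236880, minus strand: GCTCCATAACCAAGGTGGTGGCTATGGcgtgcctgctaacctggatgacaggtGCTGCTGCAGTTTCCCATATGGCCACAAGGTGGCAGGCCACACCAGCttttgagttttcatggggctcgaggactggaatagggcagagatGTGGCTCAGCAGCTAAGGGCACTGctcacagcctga
The next 2 hold the letters of the NF-kB recognition sequence (kappaB) in a receptor promoter and in an intron of a signalling gene.
Cd40 promoter, chr2:165055541-165055626, plus strand: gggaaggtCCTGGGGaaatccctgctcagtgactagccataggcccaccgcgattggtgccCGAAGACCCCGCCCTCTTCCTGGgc
Traf2 intronic peak, chr2:25534261-25534460, minus strand: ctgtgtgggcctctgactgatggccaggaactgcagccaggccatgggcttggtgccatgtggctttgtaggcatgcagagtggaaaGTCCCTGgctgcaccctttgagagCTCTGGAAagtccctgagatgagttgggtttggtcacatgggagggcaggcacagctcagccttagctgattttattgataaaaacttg
The last pair sets the highest promoter of the 9 genes beside a promoter at the low end. For Map3k14 the capitals again mark footprints of both animals. For Tnfsf13b the letters are the 250 bases upstream of the start site in RefSeq (GRCm38.p6). No peak of either animal overlaps this stretch and footprints were not looked up in it, so the capitals mark CG dinucleotides.
Map3k14 promoter, chr11:103267473-103267720, minus strand: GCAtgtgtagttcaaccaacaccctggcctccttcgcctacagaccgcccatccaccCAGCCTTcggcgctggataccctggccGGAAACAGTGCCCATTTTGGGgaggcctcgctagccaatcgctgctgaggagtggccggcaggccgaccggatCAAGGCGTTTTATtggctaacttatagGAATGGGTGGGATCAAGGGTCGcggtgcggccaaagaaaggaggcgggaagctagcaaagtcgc
Tnfsf13b upstream, chr8:10006217-10006466, plus strand: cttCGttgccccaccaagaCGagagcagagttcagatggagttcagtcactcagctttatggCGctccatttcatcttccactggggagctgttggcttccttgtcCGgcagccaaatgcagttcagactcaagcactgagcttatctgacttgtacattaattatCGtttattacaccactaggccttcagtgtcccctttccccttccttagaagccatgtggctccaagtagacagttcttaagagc

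The promoters of all 3 receptor genes and all 3 signalling genes were open in both spleens, and none of the 3 ligand genes had an open promoter in both. A promoter was the 1 kb on either side of any annotated transcription start site (TSS), and it counted as open where at least 1 peak overlapped it. By that count 6 of the 9 genes were open in both animals, against 59.8% of all protein-coding genes. The height of a promoter is that of its strongest peak, the authors' signal, whose unit is not stated in words. Among genes with a promoter peak the median height was 5.62 in animal 1 and 6.63 in animal 2. In whole tissue, a low peak from few cells with the site open and one from less accessible chromatin in each cell cannot be told apart.

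**Figure D1:**
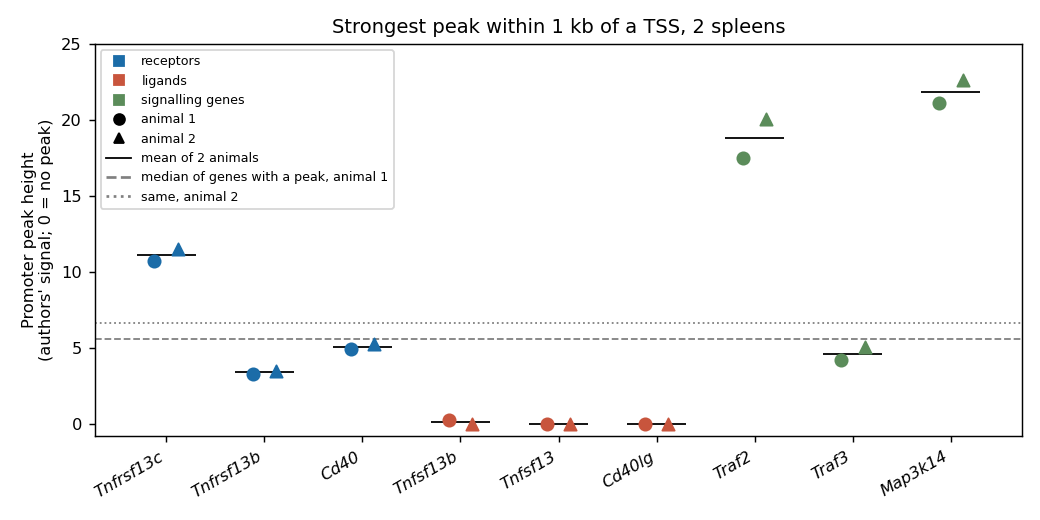
Height of the strongest peak within 1 kb of a TSS (authors' signal, 0 where no peak was listed) for each of the 9 genes, with circles for animal 1, triangles for animal 2 and a bar at their mean. Map3k14 and Traf2 lie at 17.5 or above in both animals, the receptors lie between 3.32 and 11.5, and the only ligand value above 0 is 0.279 for Tnfsf13b in animal 1.

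Among the receptors, the gene for the BAFF receptor had the highest promoter. Tnfrsf13c (chr15:82221743-82224369, minus strand) encodes the receptor through which BAFF keeps mature B cells alive. Its promoter peak, chr15:82224301-82224520, spans the TSS and reached 10.7 in animal 1 and 11.5 in animal 2, with a mean of 11.1 ± 0.611 (SD, n = 2). This placed it at percentile 78.2 and 74.5 of the open promoters. A weaker intronic peak at +0.9 kb stood at 1.75 in animal 1 and 1.79 in animal 2.

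Around this short gene, 4 strong distal peaks were present in both animals. The peak at +5.3 kb, beyond the 3′ end, stood at 5.67 in animal 1 and 6.27 in animal 2. Upstream, the peak at −5.3 kb stood at 4.74 and 5.84, and the one at −8.5 kb at 3.75 and 3.80. The peak at −12.4 kb was the highest distal one, at 6.41 in animal 1 and 7.01 in animal 2, so the promoter was 1.66 and 1.64 times as high as any distal peak of the gene's own. The remaining shared peak, at +12.1 kb, lies within 1 kb of the TSS of Shisa8 and cannot be assigned to either gene. Animal 2 had another 2 low peaks, of 1.39 and 1.13, with no match in animal 1.

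The +5.3 kb and −5.3 kb peaks of Tnfrsf13c share the run GTCCCCAGGGACT, 13 bases long, which lies in a footprint of both animals in each. Within it stand TCCC and GGGA 2 bases apart, the palindrome recognised by the EBF factors, which include the B cell regulator EBF1. These were the only 2 matches to that palindrome in the peaks of the 9 genes. In 200 bp windows around peak centres, searched on both strands, it was found in 2.70% of the genes' peaks in animal 1 and 2.94% in animal 2, against 1.18% and 1.14% of all peaks. The −12.4 kb peak holds CCACAAGGTGGC, a match to a core of the CTCF recognition sequence, inside the longer of its footprinted runs. There 98 of the 180 printed bases were in footprints of both animals, the most for any of these printed sequences.

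The locus of TACI had the lowest receptor promoter and the most distal peaks. Tnfrsf13b (chr11:61126755-61149372, plus strand) encodes TACI, which binds both BAFF and APRIL. Its promoter height was 3.32 in animal 1 and 3.51 in animal 2, averaging 3.41 ± 0.137 (SD, n = 2), at percentile 33.8 and 31.9 of open promoters. The height came from different TSS in the animals. The peak across the 5′ TSS stood at 2.99 in animal 1 and 3.51 in animal 2, and the peak at +15.7 kb, across an internal TSS in an intron, stood at 3.32 and 2.48. With the 5′ TSS alone the mean height was 3.25 ± 0.370 (SD, n = 2).

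Tnfrsf13b had 14 distal peaks in animal 1 and 11 in animal 2. That was 2.24 and 1.76 per 10 kb of its window, against a median of 0.378 and 0.354 over all protein-coding genes and an upper quartile of 0.810 and 0.783. Most of them lie upstream, between −17.7 and −3.6 kb in animal 1. The strongest of these, at about −17.7 kb, stood at 3.16 in animal 1 and 2.62 in animal 2. The highest distal peak lies beyond the 3′ end, at +29.2 kb (chr11:61155841-61156040 in animal 1), and stood at 3.20 and 4.72. It was 0.965 times the promoter height in animal 1 and 1.34 times in animal 2, so no single site dominated the locus.

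At Cd40 most of the accessible sites lay at the start of the gene. Cd40 (chr2:165055627-165072948, plus strand) encodes the receptor for the helper signal from T cells. The peak across its TSS stood at 4.96 in animal 1 and 5.25 in animal 2, averaging 5.11 ± 0.201 (SD, n = 2), at percentile 45.7 and 42.1. It was flanked by a peak at −0.4 kb, of 2.31 in animal 1 and 2.02 in animal 2, and by an intronic peak at +0.9 kb, of 3.79 and 3.33. A low intronic peak at +0.5 kb stood at 1.10 and 1.25, and a peak at +6.3 kb, close to an internal TSS, at 1.72 and 2.03. With that one, 5 of the 7 peaks in each animal were within 1 kb of an annotated TSS, 4 of them at the start of the gene. The other 2 were an intronic peak at +14.9 kb, of 1.18 and 1.19, and one beyond the 3′ end at +19.5 kb, of 2.97 and 3.98. All 7 were found in both spleens.

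Both strong Cd40 peaks near the TSS hold a kappaB match. The letters are GGGAAATCCC at −74 bp from the TSS and GGGAATCCCC at +0.9 kb, and footprints of both animals overlapped each of them at 1 or more bases. In the printed promoter only the first letters of the match are capitals, so the shared footprint covers its edge and not the whole of it. The distal peaks at +14.9 and +19.5 kb each hold a CTCF match, CCAGCAGGGGGC and CCAGCAGGTGGC, under footprints of both animals.

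**Figure D2:**
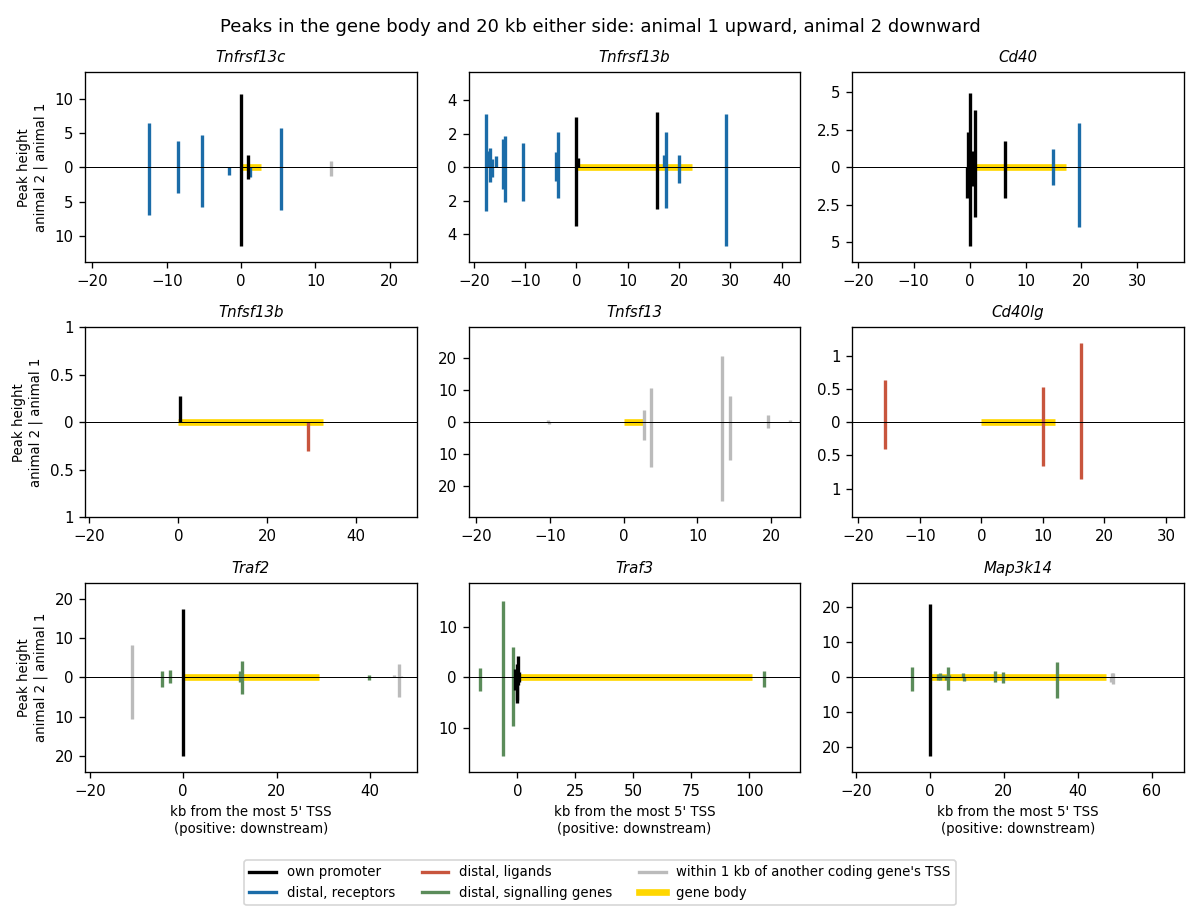
Peaks in the gene body and 20 kb either side of each gene, by distance from the most 5′ TSS in kb (positive downstream), with height in the authors' signal upward for animal 1 and downward for animal 2, each panel on its own scale. Black lines are the gene's own promoter peaks, grey lines lie within 1 kb of another coding gene's TSS, and the yellow bar is the gene body. Tnfrsf13b has a spread of similar heights, Traf3 has its tallest line at −6.2 kb, and all lines of Tnfsf13 are grey.

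The ligand loci were largely closed in whole spleen. Counting only peaks not within 1 kb of another coding gene's TSS, the 3 ligand genes held 4 peaks in each animal, or 0.239 per 10 kb of window. The 3 receptor genes held 30 such peaks in animal 1 and 28 in animal 2, or 1.85 and 1.72 per 10 kb. The 3 signalling genes held 26 and 25, or 0.874 and 0.840 per 10 kb.

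Tnfsf13b (chr8:10006467-10039072, plus strand) encodes BAFF. It had 1 promoter peak in animal 1, chr8:10006701-10006774, with a height of 0.279, at percentile 1.29 of the open promoters, and none in animal 2. Animal 2 instead had 1 peak of 0.299 in an exon at +29.1 kb, which was not found in animal 1. Neither peak held a footprint or was in the authors' shorter, stricter list. The longest stretch without a peak was 52.3 kb in animal 1 and 49.1 kb in animal 2, of a window of 72.6 kb. The locus of the main survival factor of mature B cells was thus represented by 1 unrepeated low peak per animal.

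Tnfsf13 (chr11:69682846-69685784, minus strand) encodes APRIL and had no promoter peak in either spleen. Its window held 7 peaks in animal 1 and 6 in animal 2, and all of them lie within 1 kb of the TSS of another coding gene. The highest, 20.6 in animal 1 and 24.7 in animal 2, belongs to the start of Eif4a1, which encodes a translation initiation factor. A peak in the last exon of Tnfsf13 itself stood at 3.82 and 5.58, but it lies within 1 kb of the TSS of Senp3, whose nearest strong peak reached 10.7 and 14.1. The peak at −10.2 kb, of 0.637 and 0.631, lies within 1 kb of a TSS of Tnfsf12 and Tnfsfm13. The peak at +19.5 kb, of 2.34 and 1.66, is also the promoter peak of Cd68, 1 of the myeloid markers below. The peak counts of this window therefore reflect its neighbours' promoters as annotated, and no peak there can be assigned to Tnfsf13 alone.

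Cd40lg (chrX:57212143-57224042, plus strand) encodes CD40 ligand and likewise had no promoter peak in either animal. It had 3 distal peaks, and all 3 were present in both. The strongest, at +16.2 kb beyond the 3′ end, stood at 1.19 in animal 1 and 0.862 in animal 2. The intronic peak at +10.0 kb stood at 0.537 and 0.659, and the upstream one at about −15.7 kb at 0.637 and 0.407. All were low, between percentile 12.8 and 60.2 of all peaks, yet each was in the shorter list of both libraries. Cd40lg is the only one of these genes on the X chromosome, of which males carry 1 copy. Heights were not adjusted for copy number.

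The absence of ligand promoter peaks was also seen in the authors' cut-rate files, which come from the same libraries and are no separate check. The authors' cut-rate files list short intervals with a false discovery rate (FDR) under 0.05. All peaks of the genes described here met that limit too, with a largest best FDR of 0.0456 in animal 1 and 0.0383 in animal 2. A promoter without a peak was therefore likely to have no listed interval either. For Tnfsf13 and Cd40lg no interval was listed within 1 kb of a TSS in either animal, and for Tnfsf13b the best FDR was 0.0125 in animal 1 with none listed in animal 2. The 6 receptor and signalling genes had listed intervals in both, as did 60.7% of all protein-coding genes. That share is close to the 59.8% with a promoter peak in both animals. The best FDR was 4.27e-27 in animal 1 and 1.04e-41 in animal 2 for Tnfrsf13c, and 4.61e-38 and 4.05e-40 for Cd40. These files show that no accessible site passed the authors' limit at this depth, not that the promoters are closed in every cell.

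The signalling genes Map3k14 and Traf2 had the highest promoters of the 9 genes. Map3k14 (chr11:103219762-103267472, minus strand) encodes NIK, the kinase at the head of the noncanonical pathway. Its promoter peak, chr11:103267341-103267720, stood at 21.1 in animal 1 and 22.6 in animal 2, averaging 21.8 ± 0.997 (SD, n = 2), at percentile 98.9 and 98.5 of open promoters. The same peak also covers the start of the noncoding gene 1700028N14Rik, so the height need not belong to Map3k14 alone. Of the printed 248 bases upstream of the TSS, 66 lay in footprints of both animals.

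Map3k14 had 13 distal peaks in animal 1 and 11 in animal 2, most of them in its introns. The highest was intronic at +34.3 kb, at 4.30 in animal 1 and 5.85 in animal 2, and the next ones stood at +4.9 kb, at 3.05 and 3.77, and at −4.7 kb, at 2.88 and 3.94. The peaks at +34.3 and −4.7 kb each hold a CTCF match under footprints of both animals, and 2 of the distal peaks lie at the start of the neighbour Spata32. The promoter was 4.92 and 3.85 times as high as the highest distal peak.

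Traf2 (chr2:25517982-25546940, minus strand) encodes the adaptor that links TRAF3 to the ubiquitin ligases acting on NIK. Its promoter stood at 17.5 in animal 1 and 20.1 in animal 2, averaging 18.8 ± 1.81 (SD, n = 2), at percentile 96.2 and 96.5. Of the gene's own distal peaks the highest was in an intron at +12.6 kb (chr2:25534261-25534480 in animal 1 and chr2:25534261-25534460 in animal 2), at 4.18 and 4.30. It holds the kappaB match GGAAAGTCCC 2 times, each overlapped by footprints of both animals. The highest distal peak of the window, at −10.9 kb, stood at 8.12 and 10.6 but lies at the start of Edf1.

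Traf3 was the exception among the signalling genes. Traf3 (chr12:111166370-111267153, plus strand) encodes the adaptor whose loss releases NIK. The peak across its TSS stood at 4.20 in animal 1 and 5.05 in animal 2, averaging 4.63 ± 0.599 (SD, n = 2), at percentile 40.3 and 40.9 and below the median open promoter in both. The highest peak of its window was upstream at −6.2 kb, chr12:111160021-111160220 in animal 1, at 15.1 and 15.6. It was 3.60 times as high as the promoter in animal 1 and 3.09 times in animal 2, and a ratio above 1 in both animals was seen at none of the other 5 genes with an open promoter. This peak lies in an exon of 4930595D18Rik, a coding gene on the opposite strand, and is over 1 kb from any coding TSS.

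A second upstream peak of Traf3, at −1.7 kb, stood at 5.98 in animal 1 and 9.57 in animal 2; it lies outside the promoter limit of 1 kb. With the promoter widened to 2 kb, which takes in that peak, the mean height was 7.78 ± 2.54 (SD, n = 2). Beyond the promoter peaks the gene body held none: the longest stretch without one was 105 kb in each animal, ending at a peak of 1.26 and 1.94 at about +106.2 kb. That last peak holds the CTCF match CCAGAAGGGGGC under footprints of both animals.

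The order of mean promoter heights was Map3k14, Traf2, Tnfrsf13c, Cd40, Traf3, Tnfrsf13b, Tnfsf13b and then Tnfsf13 and Cd40lg, which had no peak. The 6 open promoters stood in the same order in each animal. Cd40 and Traf3 lay within their spread of each other, since Traf3 in animal 2, at 5.05, was above Cd40 in animal 1, at 4.96. With the 2 kb promoter the mean height of Traf3, 7.78, was above that of Cd40, 5.11, which turns their order. All other neighbours among the open promoters had values that did not overlap between the animals.

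The peaks in the windows of the 9 genes, with those at other genes' starts included, were higher at the median than peaks in general. A larger share of them was found in both animals. Their median height was 1.73 in animal 1 and 2.04 in animal 2, against 0.888 and 1.05 over all peaks, with the same median widths. Distal peaks at other coding genes' TSS were then left out. The medians were 1.98 and 2.06 for the receptor genes and 1.75 and 2.45 for the signalling genes. For the ligand genes they were 0.587 and 0.533, below those of all peaks. Of the genes' peaks, 85.1% in animal 1 and 94.1% in animal 2 overlapped a peak of the other animal by at least 1 bp, against 76.5% and 79.0% of all peaks. A footprint lay inside 86.5% of the genes' peaks in animal 1 and 95.6% in animal 2, against 81.2% and 83.3% of all peaks. The peaks held 195 and 194 footprints, or 2.64 and 2.85 per peak, against 2.23 and 2.27 over all peaks. Height was not matched in these comparisons, and its part in them was not tested.

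Footprints were also counted by role. The receptor windows held 76 footprints in animal 1 and 77 in animal 2, and the signalling windows 92 and 89. The ligand windows held 27 and 28, but once peaks at other genes' starts were left out only 3 and 8 remained, all at Cd40lg. For the receptors 74 and 75 remained by that count. These lay in 30 and 28 receptor peaks, against 4 ligand peaks in each animal. Footprint totals depend on the number of peaks, so they are no result separate from the peak counts.

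The heights of the 2 spleens were close at these genes. Over 62 peaks matched 1 to 1, the median log2 ratio of animal 1 over animal 2 was −0.18 (SD 0.36 across peaks), against −0.23 (SD 0.41) over all 58277 matched peaks. None of the 62 departed from that overall median by more than 2-fold, against 1.94% of all matched peaks. The extremes were the peak at about −15.7 kb of Cd40lg, with a log2 ratio of 0.65, and the peak at −4.4 kb of Traf2, with −0.76. The ratio describes 1 library per animal.

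Within peaks, the kappaB match was found at 3 of the 9 genes, Cd40, Traf2 and Traf3. On both strands, 200 bp windows held it in 9.46% of the genes' peaks in animal 1 (7 of 74) and 8.82% in animal 2 (6 of 68), against 4.39% and 4.38% of all peaks. Over whole peaks there were 8 distinct matches, 2 at Cd40, 4 at Traf2 and 2 at Traf3, with none at the ligand genes, and 5 of them were overlapped by footprints of both animals. The matches of Traf3, GGGACTTTCC and GGGGATTTCC, lie close to its TSS and were overlapped by footprints of animal 2 only. By the 200 bp windows, the CTCF match was found for 14.9% of the genes' peaks in animal 1 and 13.2% in animal 2, against 8.79% and 9.34% of all peaks. Over whole peaks there were 11 distinct CTCF matches, at 6 of the 9 genes and at no ligand gene. The ligand windows held only 11 peaks in animal 1 and 10 in animal 2, against 31 and 29 for the receptors. The signalling windows held 32 and 29. The lack of both matches at the ligand genes is therefore not read as a difference between roles. A window can reach past a narrow peak, so the 2 kinds of count differ. GGGCGG, the GC box of SP and KLF factors, was in 27.0% and 29.4% of the genes' peaks, against 21.5% and 24.3%. Of the motifs less frequent than over all peaks in both animals, the ETS core GGAAG was in 55.4% of the genes' peaks in animal 1 and 60.3% in animal 2, against 64.0% and 62.5%, and the TCF/LEF core CTTTGA in 8.11% and 7.35%, against 11.4% and 10.2%. The 19 motifs were not tested. A match is a run of letters and does not show that the factor is bound, and these counts are too small to be called particular to the 9 genes.

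The 3 roles also differed in the CpG content of their promoters, which the choice of genes did not use. Within 500 bp of the most 5′ TSS, the observed over expected ratio of CG dinucleotides was 0.194 for Tnfsf13, 0.260 for Tnfsf13b and 0.265 for Cd40lg, all in the lowest tertile of protein-coding genes. It was 0.356 for Cd40, 0.368 for Tnfrsf13c and 0.392 for Tnfrsf13b, all in the middle tertile. It was 0.823 for Map3k14, 0.939 for Traf2 and 1.00 for Traf3, all in the highest. The median over all protein-coding genes was 0.552. The printed Tnfsf13b letters hold 5 CG dinucleotides in 250 bases, while the RefSeq stretches of the same length hold 19 at Map3k14 and 49 at Traf3.

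Read against their tertile, open promoters were found in both animals for 0 of the 3 ligand genes, against 19.7% of all protein-coding genes of low CpG content. They were found for 3 of 3 receptor genes against 67.6% in the middle tertile, and for 3 of 3 signalling genes against 92.1% in the highest. Tnfsf13b, Cd40lg and the 3 receptor genes lie close to the bound between their tertiles, a ratio of 0.303, and Tnfsf13, at 0.194, lies further from it. By CpG ratio the ligand genes were at percentile 22.0 to 30.1 and the receptor genes at 37.2 to 39.5. The 19.7% and 67.6% are shares over whole tertiles, and the share of open promoters near the bound was not computed. Among the marker lists below, 4 of 7 B cell markers were in the lowest tertile and 7 of 7 were open in both animals. Of 8 T cell markers 6 were in the lowest tertile and 7 were open. Of 8 myeloid markers all 8 were in it and 2 were open, of 5 stromal and endothelial markers 4 were in it and 2 were open, and of 7 markers of other organs 6 were in it and 0 were open. The part of CpG content in the split by role was not tested.

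**Figure D3:**
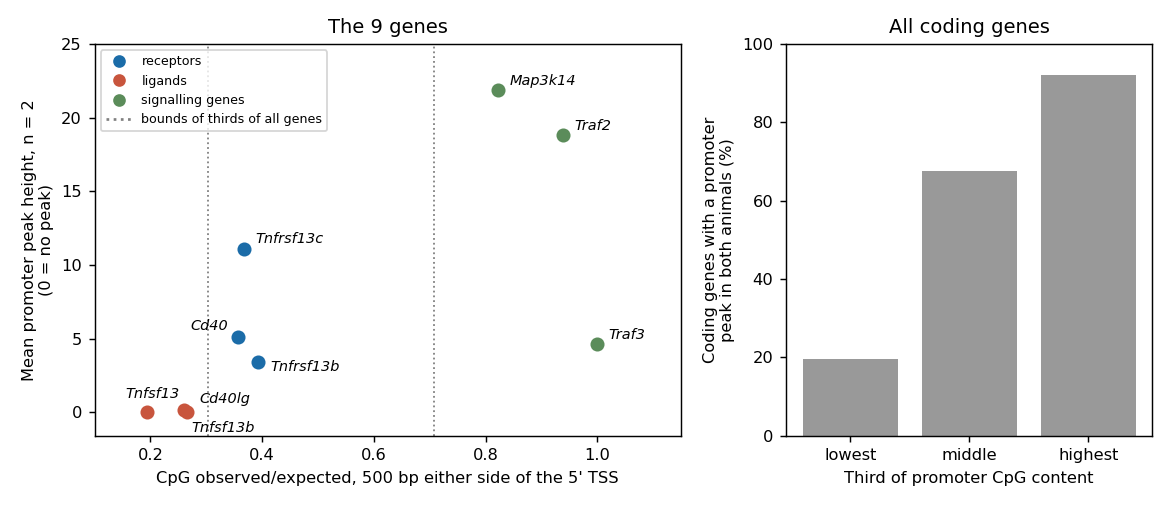
Left, mean promoter height of 2 animals (authors' signal) against the CpG observed over expected ratio within 500 bp of the 5′ TSS for the 9 genes, with dotted lines at the tertile bounds of all protein-coding genes, 0.303 and 0.708. Right, the share of all protein-coding genes with a promoter peak in both animals by tertile, which was 19.7%, 67.6% and 92.1%. The ligands lie left of the lower bound at or near 0, the receptors between the bounds, and the signalling genes beyond the upper one.

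Of 29 further genes of the pathway, listed by name, 28 had an open promoter in both animals (96.6%, against 59.8% of all protein-coding genes). Their median height was 7.92 in animal 1 and 8.15 in animal 2. The highest was Nfkbie, an NF-kB inhibitor, at 18.8 in animal 1 and 21.2 in animal 2, followed by the adaptor Traf5 at 19.2 ± 2.88 (SD, n = 2). Bcl2l11, which encodes the death factor BIM that BAFF signals restrain, stood at 15.5 ± 2.71, and Relb, the NF-kB subunit of the noncanonical pathway, at 14.5 ± 1.26 (SD, n = 2 each). The only gene without a promoter peak was Tnfrsf17, which encodes BCMA, the APRIL receptor of plasma cells. So the third receptor of BAFF and APRIL did not share the open promoters of Tnfrsf13c and Tnfrsf13b.

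Among other genes of the TNF superfamily, closed promoters were not a property of ligands in general. Of 15 other ligand genes 13 were open in both (86.7%), and their median height was low, at 0.903 in each animal. The lymphotoxin genes Ltb and Lta stood at 8.57 ± 0.112 and 4.55 ± 0.0596, Tnf at 3.67 ± 0.0255 and the death ligand Tnfsf10 at 1.69 ± 0.360 (SD, n = 2 each). Tnfsf15 had a peak in animal 1 only, of 0.494, and Cd70 had none. Lta, Tnf and Ltb lie next to each other, so their windows share peaks.

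Of 25 other receptor genes 18 were open in both (72.0%), and their median height was 1.36 in animal 1 and 1.55 in animal 2. The highest were Relt at 14.3 ± 3.02 and Tnfrsf9, a costimulatory receptor of T cells, at 11.2 ± 0.918, then Tnfrsf12a at 5.28 ± 0.436 and Tnfrsf22 at 4.55 ± 1.05 (SD, n = 2 each). Tnfrsf13c, at 11.1 ± 0.611, and Cd40, at 5.11 ± 0.201, thus lay near the top of the receptor range. Tnfrsf10b, Tnfrsf11b and Tnfrsf25 had a peak in animal 2 only, of 0.591, 0.278 and 0.720, and Tnfrsf4, Tnfrsf8, Tnfrsf17 and Eda2r had none. The lists are short and their members were picked by name, so nothing is called particular to either.

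**Figure D4:**
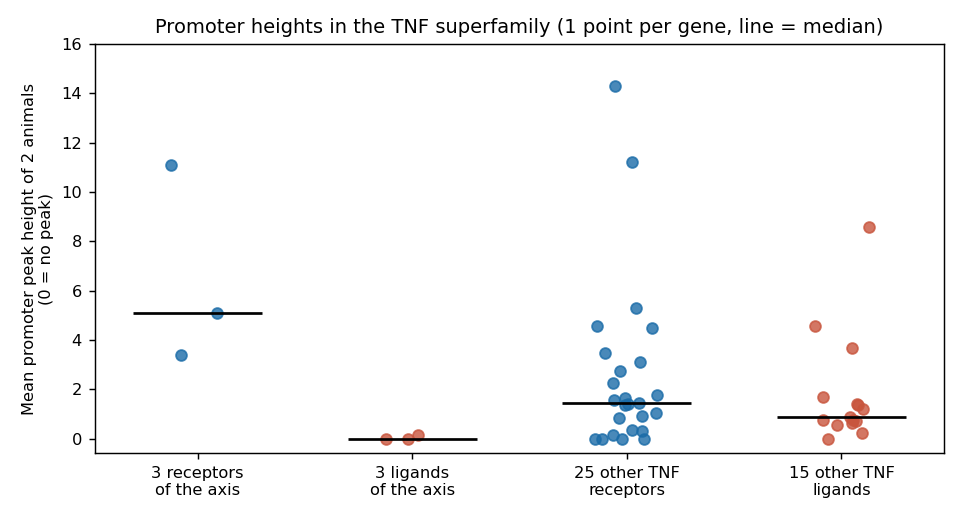
Mean promoter height of 2 animals (authors' signal, 0 where no peak was listed), 1 point per gene, for the 3 receptors and 3 ligands of the survival axis and for 25 other receptor and 15 other ligand genes of the TNF superfamily, with a line at each group's median. Tnfrsf13c at 11.1 is close to Tnfrsf9 at 11.2, and the 3 ligands lie at or near 0 while Ltb reaches 8.57.

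The cell types that could supply these signals were read from marker promoters. All 7 B cell markers were open in both animals, with summed heights of 55.0 in animal 1 and 54.8 in animal 2. Of 8 T cell markers 7 were open in both, Cd4 had no peak, and the sums were 17.0 and 18.3. Of 8 myeloid markers 2 were open in both, 2 in animal 1 only, and Adgre1, Ly6c2, S100a8 and S100a9 had none, with sums of 4.53 and 2.52. Of 5 stromal and endothelial markers 2 were open in both, with sums of 5.97 and 6.69, above those of the myeloid markers. None of 7 markers of other organs was open in either animal, so the markers fit the label of spleen. The unopened promoter of Cd40lg stood beside T cell markers of which most were open, and those of Tnfsf13b and Tnfsf13 beside myeloid and stromal markers of which most were not. The part of cell composition in these values was not tested.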

How the data were processed

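Per the labels, each DNase-seq library came from 1 animal and was processed against mm10. For the aligner, peak caller and footprint caller, the tools were not given in the sources used here. Of the peaks, the authors deposited a longer and a shorter list, whose height is a signal of DNase cut density, and the longer list was used. Tested on the values, heights were whole multiples of 0.00716 in animal 1 and 0.00679 in animal 2. Read totals are not stated, so no counting error was modelled. The deposited cut-rate files give an FDR, a q-value, and list only intervals under 0.05. The deposited footprint files carry the constant 0.01 as p-value, so footprints were not ranked. Peaks were made per library, not on pooled reads, and the libraries were compared as deposited, with no rescaling.

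Genes, transcripts and TSS came from GENCODE M21. Intervals were compared in Python 3.11.15 with numpy 2.4.6 and pandas 2.3.3, and tested on simulated data. A peak counted as a promoter peak where it overlapped the 1 kb on either side of any TSS. A footprint counted where it lay wholly inside a peak. A percentile is the rank among genes with a promoter peak. Motifs were 19 consensus sequences, searched on both strands in 200 bp windows around peak centres, and in whole peaks for positions. RefSeq promoter sequences were matched by symbol and were found for 7 genes, not Cd40 and Cd40lg.

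The 9 genes and all lists were chosen with earlier results of these data known. All 9 are named. Of the lists of other pathway genes, other TNF receptors and other TNF ligands, the 4 genes with the highest mean promoter height are named, with those having a promoter peak in 1 animal or none. Neighbours are named where the highest distal peak of a window lies at their TSS. Marker lists are given by their counts and sums. Cd4, Adgre1, Ly6c2, S100a8, S100a9, Cd68, Tnfsf12, Tnfsfm13, Senp3, Shisa8, Spata32, 4930595D18Rik and 1700028N14Rik were named after their values were seen. With 1 group no test was run, and no replicate block applies. A ratio of receptor to ligand median heights was planned, but the ligand median is 0, so both medians are given instead. Alternatives were the shorter list, the higher 50% of the peaks, promoter limits of 500 bp and 2 kb, the most 5′ TSS alone, flanks of 10 and 50 kb, stricter overlap, and each animal alone.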

Additional observations from a re-analysis of the deposited data

How the results depend on the processing

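The count of 6 genes with an open promoter in both animals was the same in every alternative that kept both animals, and was 7 in animal 1 alone, where Tnfsf13b had its peak. The median promoter height of the 3 ligand genes was 0 in all of them, against 5.11 for the receptor genes. Of 118 alternative values 12 moved, which for a height or a share means by more than the SD between the animals and for a count by more than 1.5 times. Heights with 1 animal left out could not move by this rule, because with 2 animals that shift always stays within their SD. They are counted among the 118 but say nothing about stability. Distal counts depended on the window. The median count per gene, averaged over the animals, was 5.50 with flanks of 20 kb, 3 with 10 kb and 12.5 with 50 kb. The distal peaks of the receptor genes numbered on average 20.5, 12.5 and 36 for these flanks, and those of the ligand genes 10.0, 4.50 and 24.0. With the higher 50% of the peaks the ligand genes had 5.50, and without peaks at other coding TSS 3.50. With 50 kb flanks the footprints numbered 325, against 194 with 20 kb, and 83.1% of the peaks were found in the other animal, against 89.6%. Among single genes, Traf3 reached 7.78 with a 2 kb promoter and Tnfrsf13b 3.25 with the most 5′ TSS alone. With an animal left out, the share of peaks found again and the log2 ratio between the animals have no value. No paired analysis was possible because the libraries form 1 group. The lone peak of Tnfsf13b in each animal had a best FDR of 0.0125 in animal 1 and 0.0283 in animal 2, and neither was found in the other animal.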
